A study of Mus musculus with 3 samples.

Results

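The TRIM family genes described here are the 68 mouse genes whose symbol is Trim followed by a number and which have at least 1 protein-coding transcript, out of 22028 protein-coding genes measured in the same libraries. A pseudogene of the family, Trim30e-ps1, has a matching symbol but no protein-coding transcript and was left out. RNA bound to chromatin was taken from bone marrow-derived macrophages (phagocytes grown in culture from marrow progenitors) of C57BL/6J mice after 120 min with lipid A at 100 ng/ml, depleted of ribosomal RNA and sequenced as total RNA. Lipid A is the part of bacterial lipopolysaccharide that activates the receptor TLR4. All 3 libraries, numbered as biological replicates 1, 2 and 3, belong to this 1 stimulated group and carry 1 donor label, and no unstimulated cells were analysed here. Nothing in the labels names separate cultures, so each SD and p-value covers only how these libraries differ, which can be technical. Starting RNA was 1 µg in replicate 1, 250 ng in replicate 2 and 500 ng in replicate 3, and its effect cannot be told apart from that of the replicate. Sex and age of the animals were not recorded.

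TRIM proteins carry a tripartite motif of a RING finger, B-box zinc fingers and a coiled coil, followed by a variable C-terminal part such as a PRYSPRY domain, NHL repeats, or a PHD finger with a bromodomain. Most act as E3 ubiquitin ligases, and many members with a PRYSPRY domain bind viral proteins or modify the sensors and kinases that switch on interferon and NF-kappaB signalling. TLR4 signals through MyD88 and TRIF, and the TRIF arm leads to type I interferon, a known inducer of many TRIM genes in macrophages. Chromatin-bound RNA is rich in transcripts still being made or processed, so a level in this fraction is not that of messenger RNA in the cytoplasm.

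The libraries held 19919358, 20430415 and 22023921 expected counts in replicates 1, 2 and 3. The cell type was checked with 12 macrophage markers, all of which reached 1 TPM in every library. Of T cell markers Cd3e, Cd3g and Trbc2 had no counts, while Lck and Cd4 averaged 3.66 and 3.47 TPM. No B cell, neutrophil, muscle, neuron or stromal marker averaged 1 TPM in the gene table, and of 6 erythroid markers Alas2 did, at 1.85 TPM. By the direct quantifier, described below, the neutrophil marker Cxcr2 averaged 3.91 TPM, Ebf1 (B cell) 2.14 TPM and Ckm (muscle) 1.51 TPM. Alas2 averaged 4.65 TPM by it, and the other B cell, neutrophil, muscle, neuron, stromal and erythroid markers stayed under 1 TPM. In bulk RNA, fewer cells of a type and less RNA per cell cannot be told apart. Replicate 2 stood apart in RNA of other compartments. The median of 10 genes with abundant cytoplasmic messenger RNA was 20.8, 77.8 and 22.0 TPM in replicates 1, 2 and 3, and that of 6 mitochondrially encoded genes was 27.4, 297 and 25.4 TPM.

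The sequences that the levels below are set against are short stretches at the start sites of family members. The interferon-stimulated response element (ISRE) is the motif bound by the interferon-activated complex ISGF3 and by interferon regulatory factors. Its core is GAAA and GAAA with any 2 bases between them, or the reverse complement, TTTC and TTTC with any 2 bases between them. It was searched on both strands, in RefSeq promoter windows of the build GRCm38.p6, which run from 250 bases before to 50 bases after a start site. Windows were found for 53 of the 68 members, and 9 of them held the core, which is 17%. Over all genes with windows the share was 3.99%, or 1079 of 27025 genes. A match is a description of letters and not a bound site. The 30 bases around a core are given for the 8 of these 9 members that were expressed, each written 5′ to 3′ on the strand of the gene with the core in capitals.
Trim30a: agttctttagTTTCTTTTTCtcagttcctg
Trim30d: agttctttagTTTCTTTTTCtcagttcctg
Trim12a: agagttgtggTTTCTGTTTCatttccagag
Trim5: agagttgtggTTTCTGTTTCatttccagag
Trim12c: agagttgtggTTTCTGTTTCatttccagct
Trim34a: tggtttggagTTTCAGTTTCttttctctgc
Trim26: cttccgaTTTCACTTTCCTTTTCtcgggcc
Trim21: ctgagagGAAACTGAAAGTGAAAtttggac
The Trim30a and Trim30d stretches were identical over all 30 bases and lie at chr7:104465210-104465239 and chr7:104507871-104507900 on the minus strand. A further start site of Trim30a, at chr7:104446104-104446133 on the minus strand, held the same core and matched the first at 26 of 30 bases. Those of Trim12a and Trim5 were also identical over 30 bases, and Trim12c shared 28 of 30 bases with both. Trim26 and Trim21 each held 2 overlapping cores, at chr17:36836979-36837008 on the plus strand and chr7:102565447-102565476 on the minus strand. The ninth member is Trim2, whose mean level was 0.61 TPM. Only 3 members, Trim26, Trim30a and Trim30d, held an ISRE core and a kappaB core, described below, in 1 window. Their matches did not overlap, and overlap over all windows was not counted.

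The likeness of Trim30a and Trim30d extends beyond the core, as the 100 bases before each start site show, with the ISRE core again in capitals and both genes on the minus strand of chromosome 7.
Trim30a: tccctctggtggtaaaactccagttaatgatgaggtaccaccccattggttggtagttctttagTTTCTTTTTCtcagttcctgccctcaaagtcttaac
Trim30d: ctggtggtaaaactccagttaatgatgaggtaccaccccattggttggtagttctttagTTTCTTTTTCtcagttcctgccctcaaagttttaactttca
Aligned with an offset of 5 bases, 94 of 95 bases were identical. The genes are neighbours on the chromosome.

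By level, the family was concentrated in a few members, mostly of the chromosome 7 cluster and the innate signalling list. Levels are TPM (counts divided by transcript length and scaled to a fixed library total, so that genes can be set beside each other), given as mean ± SD over the 3 libraries. Of the 68 members, 30 reached 1 TPM in every library, against 8233 of 22028 protein-coding genes, which is 37.4%. The median member stood at 0.595, 0.78 and 0.895 TPM in replicates 1, 2 and 3, and the median protein-coding gene at 0.22, 0.28 and 0.26 TPM. No test was made of this difference, and the members were not drawn from the other genes at random. Members ranged widely, since 5 averaged at least 100 TPM, 17 at least 10 TPM and 33 at least 1 TPM, while 12 had no counts in any library.
The 5 highest members held 62.0% ± 1.86 of the summed TPM of the family, and the 13 highest held 91.1% ± 1.13. The 10 members of the chromosome 7 cluster held 48.0% ± 1.70 and the 11 members of the innate signalling list 41.3% ± 0.722. The family as a whole made up 0.537%, 0.501% and 0.694% of protein-coding TPM in replicates 1, 2 and 3, while its 68 genes are 0.309% of protein-coding genes.

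**Figure D1:**
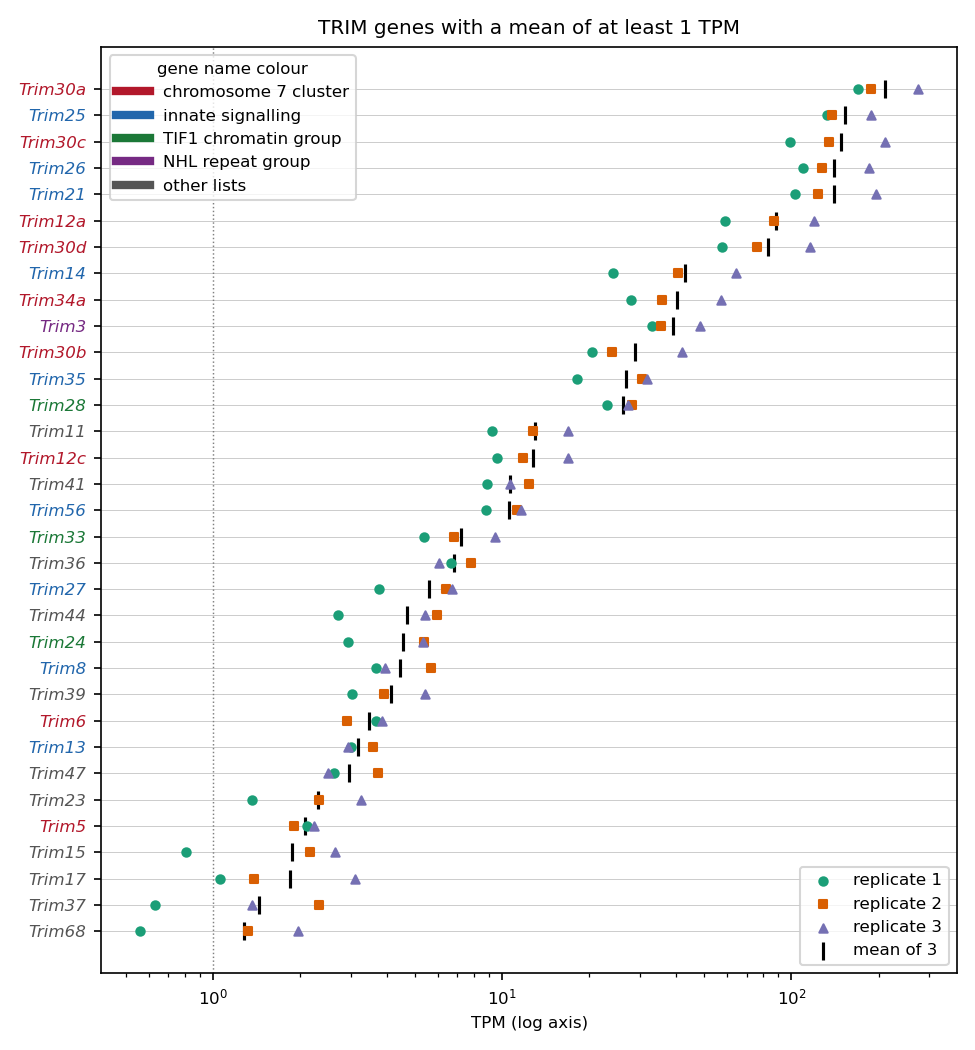
TPM (log axis) of the 33 TRIM genes with a mean of at least 1 TPM, 1 row per gene, with a point for each library and a bar for the mean of 3; gene names are coloured by role list. The 5 highest rows, Trim30a to Trim21, are at 98.85 TPM or more in every library, and replicate 3 is the rightmost point in most rows.

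The chromosome 7 cluster of the mouse (mm10 chr7:104218793-104507849, 289.1 kb) holds 10 TRIM genes and no other protein-coding gene. Its members are the mouse relatives of human TRIM5, a restriction factor that binds retroviral capsids, together with Trim6 and the Trim34 pair. All but Trim34b reached 1 TPM in every library. Trim30a, reported in mice to restrain TLR4 signalling through degradation of TAB2 and TAB3, was the highest gene of the family, with 170.1, 189 and 274 TPM in replicates 1, 2 and 3 (211 ± 55.4, n = 3). It ranked 133 from the top of all protein-coding genes by mean TPM. Trim30c, a paralog of Trim30a, had 98.85, 135 and 210.0 TPM (148 ± 56.7). Trim30d, the neighbour of Trim30a with the near-identical promoter, had 57.3, 75.8 and 116 TPM (83.03 ± 29.98). These 3 genes and Trim30b share 1 stretch of the cluster, and replicate 3 was the highest library in each. Trim30b had 20.5, 23.9 and 42.0 TPM (28.8 ± 11.6).

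The TRIM5 relatives of the cluster differed widely in level. Their ISRE stretches are alike in sequence but not in position. Relative to the start site, the first base of the core lay at 11 in Trim12a, -29 in Trim12c and -49 in Trim5. Trim12a had 58.9, 87.1 and 120.0 TPM in replicates 1, 2 and 3 (88.7 ± 30.6). Trim12c, whose stretch differs from it at 2 of 30 bases, had 9.58, 11.8 and 16.8 TPM (12.7 ± 3.72). Trim5, whose stretch is the same as that of Trim12a, had 2.11, 1.91 and 2.24 TPM (2.09 ± 0.166). The 3 genes did not overlap in level in any library, with Trim12a highest and Trim5 lowest throughout. Trim34a, a relative of human TRIM34, had 27.97, 35.6 and 57.1 TPM (40.2 ± 15.1), and its near copy Trim34b had 0.04, 0.31 and 0.44 TPM. Trim6, which makes unanchored ubiquitin chains that activate the kinase IKK-epsilon, had 3.65, 2.91 and 3.85 TPM (3.47 ± 0.495).

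Reads could be shared between copies within the cluster. Of the windows of 31 bases in its transcripts, Trim34b shared 69.1% with Trim34a, and Trim34a shared 68.5% with other genes. The share was 53.3% for Trim5, 48.1% for Trim12c and 28.8% for Trim12a, mostly with each other, against 12.03% for Trim30a and 5.69% for Trim30c. How the reads of Trim5, Trim12a, Trim12c and the Trim34 pair were divided is therefore less certain than for Trim30a or Trim30c. Trim30d overlaps the processed pseudogene Gm16464 on the same strand, which had 29.9, 39.2 and 58.2 TPM.

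**Figure D2:**
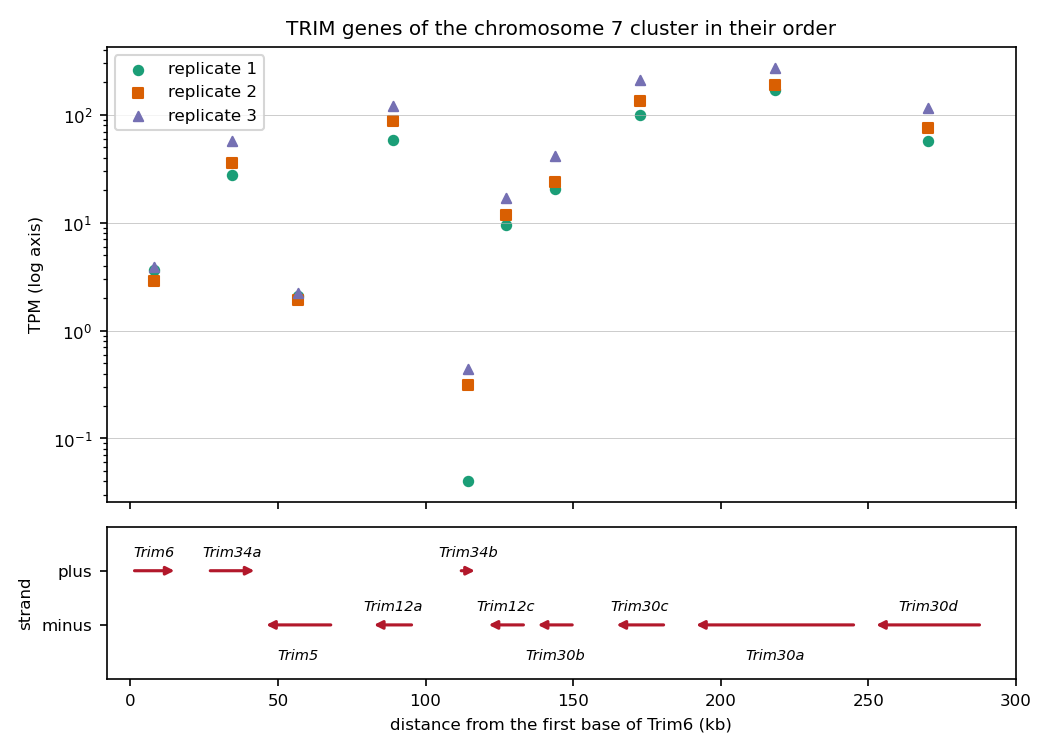
Upper panel, TPM (log axis) of the 10 TRIM genes of the chromosome 7 cluster in each of the 3 libraries, placed at the middle of each gene. Lower panel, the genes as arrows by strand, with distance in kb from the first base of Trim6. Trim30a stands highest in all 3 libraries, and Trim34b, at up to 0.44 TPM, lowest.

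Of the 11 members known for a part in innate immune signalling outside the cluster, 9 reached 1 TPM in every library. Trim25, the ligase that modifies the RNA sensor RIG-I, had 132, 138 and 188 TPM in replicates 1, 2 and 3 (153 ± 30.6). Trim26, reported to act on the transcription factor IRF3, had 109, 128 and 185 TPM (141 ± 39.4). Trim21, the cytosolic antibody receptor that marks antibody-coated viruses for the proteasome, had 103, 123 and 195 TPM (140.3 ± 48.6). These 3 genes and Trim30c had means between 140.3 and 153 TPM, which lie closer to each other than the SD of any of them. Trim25 was above Trim26 in all 3 libraries, and the order within each other pair changed between libraries. A lower tier held Trim14, a RING-less adaptor in MAVS and cGAS signalling, with 24.2, 40.4 and 64.4 TPM (43.0 ± 20.2), and Trim35, a ligase reported to act on IRF7, with 18.2, 30.4 and 31.8 TPM (26.8 ± 7.49). Trim14 overlaps Nans on the opposite strand (2.60 TPM on average).

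The remaining members of the innate signalling list were lower. Trim56, linked to the DNA-sensing proteins STING and cGAS, had 8.76, 11.3 and 11.6 TPM (10.5 ± 1.56). Trim27 had 5.60 ± 1.61 TPM and Trim8, which binds the cytokine inhibitor SOCS1, 4.43 ± 1.09 TPM. Trim13, a ligase of the endoplasmic reticulum membrane, had 3.01, 3.57 and 2.93 TPM (3.17 ± 0.349). It lies within the opposite-strand noncoding gene Dleu2, which had 29.7 TPM on average, and no source used here says whether strand was used in counting. The other 2 members were below that level. Trim65, a ligase of the RNA sensor MDA5, had 0.27, 0.65 and 0.81 TPM, and Trim38, which in human and mouse cells acts on TAB2 and on cGAS, had no counts in any library. A count of 0 allows up to 0.152, 0.147 and 0.137 CPM (counts relative to all gene counts of a library) in replicates 1, 2 and 3, for counting error only.

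The TIF1 group, whose members join a tripartite motif to a PHD finger and a bromodomain, acts in the nucleus, and 3 of its 4 genes reached 1 TPM in every library. Trim28 (KAP1), the corepressor that KRAB zinc finger proteins bring to chromatin together with SETDB1 and HP1 proteins, had 23.0, 28.1 and 27.3 TPM (26.1 ± 2.70). Trim33, which binds SMAD proteins, had 5.36, 6.79 and 9.45 TPM (7.20 ± 2.08), and Trim24, a nuclear receptor cofactor, had 2.92, 5.38 and 5.33 TPM (4.54 ± 1.41). Trim66, known mainly from testis, had 0.22, 0.32 and 0.81 TPM.

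Of the NHL repeat group, Trim3, known for its part in neuronal synapses and endosome traffic, had 33.0, 35.4 and 48.1 TPM (38.8 ± 8.12). Trim32, a ligase mutated in a human limb-girdle muscular dystrophy, had 0.51, 0.70 and 0.65 TPM, and Trim2, known from axons, had 0.23, 0.80 and 0.80 TPM. Trim3 was thus the tenth gene of the family and its NHL relatives were below 1 TPM in every library. Of 14 broadly expressed members, 6 reached 1 TPM in every library. Trim11, a ligase tied to protein quality control, had 9.22, 12.8 and 16.95 TPM (13.0 ± 3.87), and Trim41 had 8.87, 12.4 and 10.7 TPM (10.6 ± 1.74). Trim41 overlaps Rack1 on the opposite strand, which had 46.0 TPM on average. Trim44, which has no RING finger, had 2.70, 5.94 and 5.41 TPM (4.68 ± 1.74). The lowest of the 14 with counts was Trim45, at 0.203 ± 0.0902 TPM.

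Members known from other tissues were mostly at or near 0. Of the muscle genes, Trim55 (MuRF2) had 0, 0.76 and 0 TPM in replicates 1, 2 and 3, Trim72 had 0.46, 0.05 and 0.03 TPM, Trim63 (MuRF1) had 0.03, 0 and 0 TPM, and Trim54 had no counts. What little was counted of each thus came mostly from 1 library. Of 10 germ cell and embryo genes none reached 1 TPM on average, and 5 had no counts, among them Trim71, a repressor of differentiation in stem cells. The highest of them were Trim43c, with 0.15, 0.18 and 0.57 TPM, Trim69, with 0.36, 0 and 0.06 TPM, and Trim43a, with 0.05, 0 and 0.10 TPM. Of the epithelial genes Trim29, Trim31 and Trim40 had no counts and Trim50 averaged 0.05 TPM. The exceptions were Trim36 and Trim17, listed as neural, and Trim15, listed as epithelial. Trim36 had 6.63, 7.80 and 6.05 TPM (6.83 ± 0.891). Trim17, a ligase linked to neuronal cell death, had 1.06, 1.39 and 3.11 TPM (1.85 ± 1.10) and overlaps the histone gene Hist3h2a on the same strand. Trim15 had 0.81, 2.16 and 2.65 TPM (1.87 ± 0.953). It sits in a stretch of 73.1 kb on chromosome 17 (mm10 chr17:36837134-36910214) whose 5 protein-coding genes are all TRIM genes. Trim26 heads that stretch at 141 TPM, while Trim10, an erythroid gene, averaged 0.02 TPM. Trim58, a ligase of maturing red cells, averaged 0.387 TPM, and the other neural genes were low, with Trim46 at 0.197 TPM and Trim67 and Trim9 at 0 TPM.

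Among members with a promoter window, those holding the ISRE core stood at higher levels in these stimulated cells. The median of their mean TPM was 83.03 with 8 of 9 at 1 TPM in every library, against a median of 0.383 with 14 of 44 for members without it. Over all protein-coding genes with windows the medians were 0.623 with the core and 0.433 without it, and the shares at 1 TPM in every library were 43.0% and 39.9%. The core was found in 6 of 10 genes of the chromosome 7 cluster, 2 of 7 innate signalling genes and 0 of 3 TIF1 genes. Trim30c, Trim30b and Trim25 had windows without it at 148, 28.8 and 153 TPM. Several of the 9 share sequence through gene duplication and are not independent. A kappaB core, which is GGG and CC with any 5 bases between them or the reverse complement, GG and CCC with any 5 bases between them, searched on both strands, was present in 28 of 53 members, which is 52.8%, against 53.5% of all genes and 61.1% of the protein-coding genes measured here. Members with it also stood higher, with a median of 3.06 TPM and 15 of 28 at 1 TPM in every library, against 0.0267 TPM and 7 of 25 without it. Over all protein-coding genes with windows the medians were 1.29 TPM with the kappaB core and 0.0133 TPM without it. Their shares at 1 TPM in every library were 47.8% and 27.9%, and those of the members, 53.6% and 28%, were near these.

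Genes that work with TRIM proteins were present throughout. All 15 genes listed for RNA and DNA sensing reached 1 TPM in every library, from Ikbke at 767 ± 65.5 TPM and the MDA5 gene Ifih1 at 514 ± 92.5 TPM to Irf7 at 179 ± 62.2 TPM, with Mavs lowest at 2.51 ± 0.834 TPM. Ddx58, which encodes the Trim25 target RIG-I, had 118, 149 and 230 TPM, beside Rnf135, the other RIG-I ligase, with 5.62, 8.23 and 13.6 TPM. The Trim30a target genes Tab2 and Tab3 had 79.6 ± 18.1 and 3.93 ± 0.587 TPM. All 15 listed genes for ubiquitin and its relatives also reached 1 TPM in every library, led by the ISG15-activating enzyme gene Uba7 at 195 ± 63.4 TPM, Ube2d3 at 85.8 ± 15.6 TPM and Isg15 at 67.4 ± 18.5 TPM, with Ube2v2 lowest at 3.70 ± 2.13 TPM. Of the 11 listed partners of Trim28 and its relatives, Chd4 at 113 ± 10.7 TPM, Hdac1 at 57.2 ± 11.0 TPM and Chd3 at 16.9 ± 2.14 TPM were highest and Smad3, at 2.93 ± 0.185 TPM, was lowest. Among TRIM-domain genes with other names, Mid1 had 90.2 ± 9.64 TPM, Pml 68.6 ± 28.2 TPM and the pyrin gene Mefv 9.74 ± 1.97 TPM, and 3 of 11, among them Fsd1, had no counts.

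The next comparison asked which members differed between the 3 libraries of the same treatment by more than counting error. Of 45 members with a mean of at least 10 expected counts, 34 passed a chi-square test of their counts against TMM-scaled library sizes (edgeR, adjusted p under 0.05 over all 14200 genes tested). The share over all genes tested was 68.8%, so a call was the common outcome. After TMM scaling, 25 of the 45 members were highest in replicate 3, against 37.2% of all genes tested and 29.5% of the protein-coding ones. In the chromosome 7 cluster 8 of 9 members were highest in replicate 3, and of the innate signalling list 6 of 10, whereas 0 of 4 TIF1 genes and 0 of 3 NHL genes were. Trim30a had 637, 524 and 707 CPM after TMM scaling in replicates 1, 2 and 3, and Trim14 had 39.7, 53.1 and 71.4 CPM. Trim28 had 25.5, 23.8 and 19.2 CPM, with replicate 3 the lowest. The median departure of the 9 cluster members from their mean over libraries was -0.18, -0.15 and 0.25 on the log2 scale in replicates 1, 2 and 3, beside -0.07, 0.06 and -0.07 for all 11022 protein-coding genes tested.

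Called members with at least 100 counts on average were ranked by their gene-wise dispersion from edgeR. It is a squared coefficient of variation with counting error removed, drawn toward the values of other genes. It was largest for Trim37, a ligase of the centrosome, Trim17, Trim8, Trim23, Trim27 and Trim24, at 0.152, 0.130, 0.0978, 0.0967, 0.0832 and 0.0755. Trim37 had 4.12, 8.42 and 3.44 TMM-scaled CPM and stood highest in replicate 2, the library with the high cytoplasmic and mitochondrial RNA, and the part of that RNA in the result was not tested. Trim17 had 4.12, 3.97 and 7.88 CPM and was highest in replicate 3, as was Trim23, with 6.01, 8.13 and 10.2 CPM. Trim8 had 15.3, 16.01 and 8.84 CPM and was lowest in replicate 3. Trim27 had 7.46, 10.2 and 10.2 CPM and Trim24 10.4, 13.4 and 10.7 CPM. These calls depended on the libraries and the scaling. Without replicate 3 the test called 19 of 45 members, against 47.7% of all genes tested, and those of Trim17, Trim8, Trim23 and Trim24 were lost. Without replicate 2 those of Trim37 and Trim24 were lost, without replicate 1 that of Trim27, and with DESeq2 size factors those of Trim24 and Trim27. With the spread common to all genes (a common dispersion from edgeR of 0.1111) in place of counting error alone, the same chi-square test called 0 members, against 2.44% of all genes tested, with 1 of 45 (Trim59) at an unadjusted p under 0.05, against 6.73%.

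**Figure D3:**
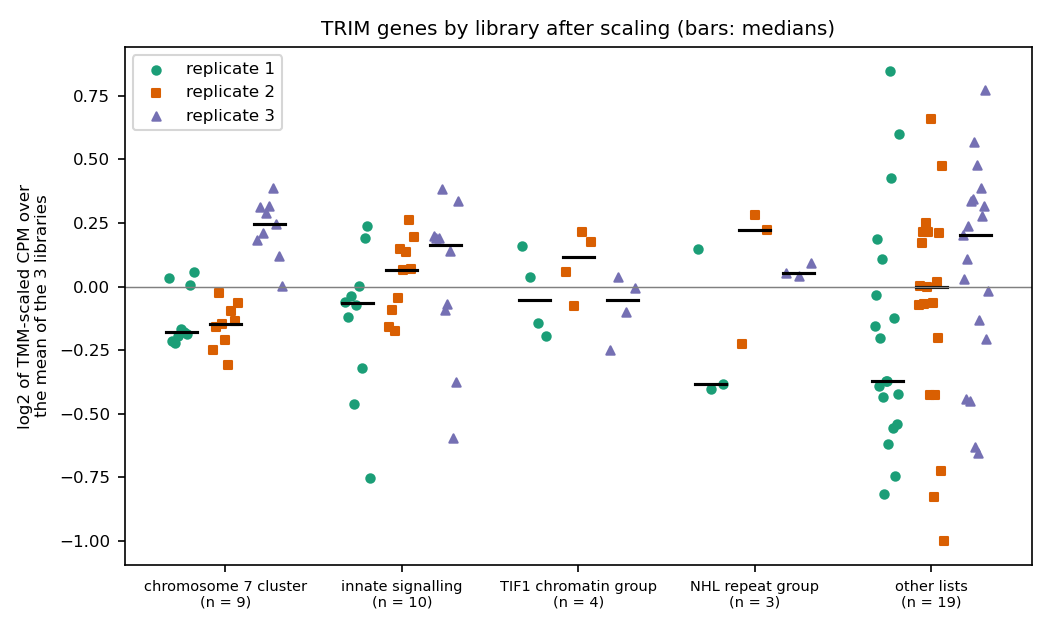
Departure of each tested TRIM gene from its own mean over the 3 libraries, as log2 of TMM-scaled CPM, by role list and library, with black bars for medians. The chromosome 7 cluster lies above 0 in replicate 3, with a median of 0.25, and near or below 0 in the other libraries; 0 of 4 TIF1 and 0 of 3 NHL genes are highest in replicate 3.

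Isoforms annotated as keeping an intron were compared with protein-coding isoforms of the same gene within each library, as log2 of summed TPM + 0.1 of the first over that of the second, tested against 0 with limma and Benjamini-Hochberg adjustment over 5603 genes. Of 14 members with both kinds of isoform and a mean of at least 50 counts, 3 had retained-intron isoforms above protein-coding ones, against 19.3% of genes tested, 5 had them below, against 29.7%, and 6 did not pass. A call in either direction was made for 49.1% of genes tested. The median ratio was -0.61 for the 14 members and -0.23 for all genes tested. Trim28 had 16.7, 20.5 and 19.0 TPM in retained-intron isoforms, against 3.01, 4.17 and 2.99 TPM in its protein-coding isoform, a log2 ratio of 2.44 ± 0.267 (SE, limma adjusted p = 0.00185), which is 5.44-fold. The lowest retained-intron value was above the highest protein-coding value. Its leading retained-intron isoform, Trim28-203, keeps intron 15 of the gene, which is 79 bases long (mm10 chr7:13030376-13030454, plus strand). That isoform had 4.9, 5.8 and 4.4 TPM in replicates 1, 2 and 3, only a part of the sum over 8 retained-intron isoforms. Whether reads of RNA not yet spliced were counted in retained-intron isoforms was not tested. Trim21 had 71.4, 85.2 and 143.9 TPM in retained-intron isoforms, against 31.4, 37.9 and 51.3 TPM in protein-coding ones (log2 ratio 1.28 ± 0.267, limma adjusted p = 0.0112). Trim3 had 20.0, 22.1 and 32.4 TPM, against 10.6, 9.98 and 13.4 TPM (log2 ratio 1.11 ± 0.267, limma adjusted p = 0.0181). Without replicate 1 the calls of Trim21 and Trim3 were lost in limma (adjusted p = 0.0578 and 0.0676), as was that of Trim3 without replicate 2 (adjusted p = 0.0971), and that of Trim28 held.

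In the opposite direction stood Trim30b (log2 ratio -2.32 ± 0.282), Trim37 (-2.22 ± 0.295), Trim30a (-1.97 ± 0.269), Trim35 (-1.67 ± 0.303) and Trim39 (-1.15 ± 0.357), with limma adjusted p between 0.00247 and 0.0408. Trim30a had 31.1, 43.2 and 52.3 TPM in its retained-intron isoform, against 135, 143 and 218 TPM in its protein-coding one. Trim30b had 4.05, 3.91 and 5.71 TPM, against 16.4, 20.0 and 36.3 TPM. With isoform TPM of the direct quantifier, described below, Trim37 turned to 1.02 on the log2 scale with a limma adjusted p of 0.0200, and Trim30a (-0.36, limma adjusted p = 0.216) and Trim39 (-0.28, limma adjusted p = 0.507) lost their calls. The call of 3 of these 5 genes therefore depended on the quantifier. Without replicate 1, Trim35 and Trim39 missed the threshold in limma (adjusted p = 0.0513 and 0.185).

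Because TPM divides by length, these ratios are not shares of reads. Retained-intron models of the family are often short, such as Trim30a-203 at 314 bases beside the protein-coding Trim30a-201 at 3771 bases. Of expected counts, retained-intron isoforms took 40.5% ± 2.83 in Trim28, 28.4% ± 2.50 in Trim21 and 26.3% ± 1.62 in Trim3, and protein-coding isoforms held more of the counts on average in each, at 47.8%, 71.6% and 70.7%. By the direct quantifier the order turned in Trim28, at 43.8% in retained-intron and 41.8% in protein-coding isoforms. In Trim30a the retained-intron share of counts was 0.672% ± 0.066, and 2.67% by the direct quantifier. Trim12a showed the reverse, with 60.6% ± 4.41 of counts in a retained-intron isoform of 3730 bases, although its log2 ratio per length was -0.76 ± 0.278 and did not pass (limma adjusted p = 0.0662). It did pass by the direct quantifier, at -0.88 (limma adjusted p = 0.0163), and with a pseudocount of 1, at -0.74 (limma adjusted p = 0.0271). In Trim26, 45.6% ± 6.15 of counts were in retained-intron isoforms and 31.9% ± 1.49 in a further noncoding isoform, which left 22.5% ± 5.94 for its 7 protein-coding isoforms. Its ratio per length was 0.63 ± 0.315 (limma adjusted p = 0.145). With all isoforms without a protein-coding type on top it was 1.65 (limma adjusted p = 0.0079), and by the direct quantifier -0.29 (limma adjusted p = 0.366). The leading retained-intron isoform of Trim26 keeps intron 5, of 1590 bases (mm10 chr17:36852694-36854283, plus strand). That of Trim39 keeps intron 1, of 2826 bases. Trim25, Trim30c, Trim30d and Trim34a have protein-coding isoforms only.

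**Figure D4:**
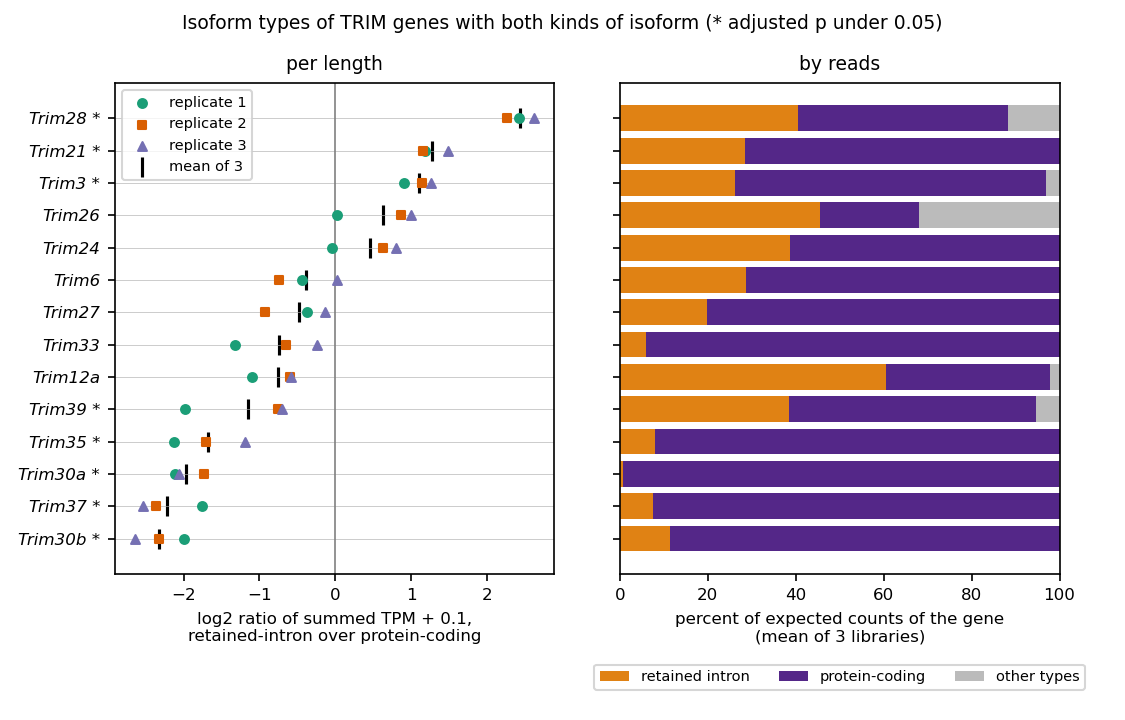
Left, log2 ratio of summed TPM + 0.1 of retained-intron over protein-coding isoforms for the 14 tested TRIM genes, with a point per library, a bar for the mean of 3 and an asterisk where the limma adjusted p was under 0.05. Right, mean percent of the expected counts of each gene by isoform type. Trim28 is highest on the left at 2.44, and Trim12a has the largest retained-intron share on the right, 60.6%.

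The authors also deposited transcript levels made directly from reads, which gives a check of each member by a second way of assigning reads. The log2 ratio of gene TPM + 0.1 by this direct quantifier over the gene table, centred on the median of each library, was tested against 0 with limma over 8541 protein-coding genes. Of 32 members tested, 7 were higher by the direct quantifier, against 30% of genes tested, and 11 were lower, against 27.9%. A call in either direction was made for 57.9% of genes tested. The largest ratios were those of Trim37 (1.17 ± 0.153, limma adjusted p = 0.00263), Trim6 (0.73 ± 0.144, limma adjusted p = 0.00839), Trim13 (-0.65 ± 0.0892, limma adjusted p = 0.00301), Trim30b (0.63 ± 0.0946), Trim41 (0.62 ± 0.113) and Trim14 (0.59 ± 0.0841). Trim14 had 51.9, 61.2 and 125 TPM by the direct quantifier in replicates 1, 2 and 3, against 24.2, 40.4 and 64.4 TPM in the gene table. Trim30b had 42.5, 41.1 and 79.7 TPM, against 20.5, 23.9 and 42.0 TPM. After centring, the 3 highest genes moved little. Ratios were 0.11 ± 0.0804 for Trim30a, -0.12 ± 0.0877 for Trim30c and -0.003 ± 0.0845 for Trim25, and none of them passed. Their TPM, which like those of Trim14 and Trim30b are not centred, averaged 282, 167 and 188 by the direct quantifier. In the gene table these means were 211, 148 and 153 TPM. Trim26 (-0.31 ± 0.0833) and Trim21 (-0.22 ± 0.0758) passed as lower, but neither did with any 1 library left out. Without replicate 1, 2 or 3 the direct quantifier was lower in 6, 7 and 5 members, while a call in either direction was made for 48.6%, 50.3% and 42.1% of genes tested, and without replicate 3 it was higher in 4, with Trim6 no longer among them (limma adjusted p = 0.0541). The medians subtracted from the libraries were 0.395, 0 and 0.476 on the log2 scale. Without that step limma called 0 of 32 members lower, and 94 of all 8541 genes tested. At an unadjusted p under 0.05 in limma these counts were 0 and 247, so few genes of any kind were lower. In either direction 36.6% of genes tested were called. Trim21 and Trim35 turned to 0.066 and 0.03.

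Members near 0 could also depend on the quantifier. Of 35 members with a mean under 1 TPM in the gene table, 5 had at least 1 TPM by the direct quantifier. The same count over all protein-coding genes was not made. Their median also rose, from 0.253 TPM in the gene table to 1.08 TPM by the direct quantifier, as means over libraries. Trim52 had no counts in any gene table and 4.81, 4.004 and 11.0 TPM by the direct quantifier, where 96.9% of its estimated counts went to a noncoding isoform. Trim63 had 1.72, 2.37 and 4.35 TPM by the direct quantifier, against 0.03, 0 and 0 TPM in the gene table, and its protein-coding isoforms took none of those counts. Trim34b had 1.45, 2.37 and 3.05 TPM, Trim65 had 1.75, 2.51 and 4.15 TPM, and Trim2 had 0.911, 1.38 and 1.95 TPM by the direct quantifier. For these genes a level near 0 in the gene table does not show that no reads came from them. A higher level by the direct quantifier does not show that reads did.

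**Figure D5:**
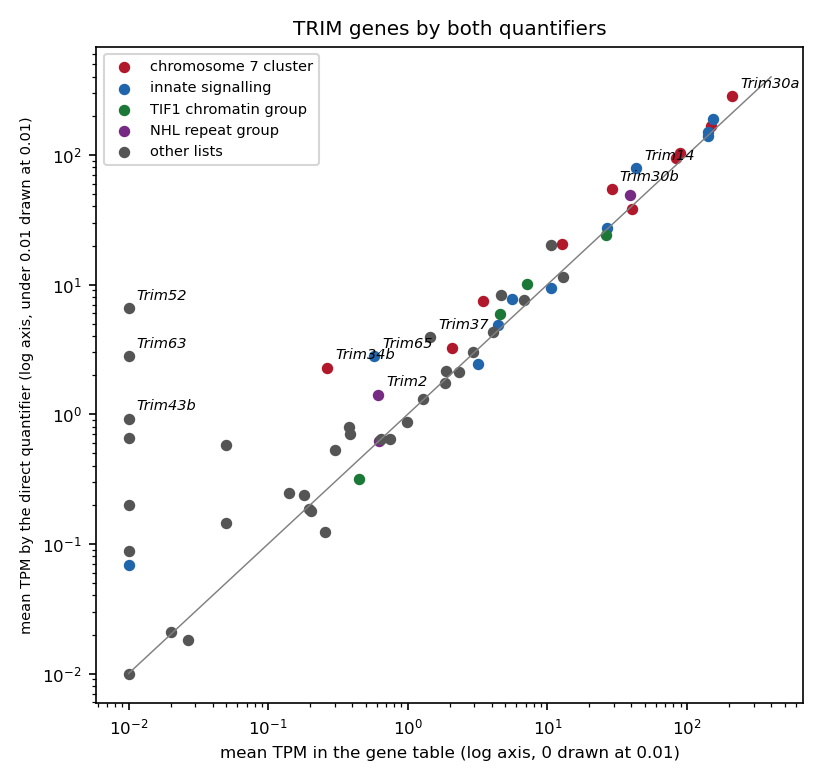
Mean TPM over the 3 libraries by the direct quantifier (vertical) and in the gene table (horizontal), both on log axes. Each TRIM gene above 0 by either is 1 point, coloured by role list, and members at 0 by both are not drawn. The line marks equal values, and values under 0.01 are drawn at 0.01. Most members above 10 TPM lie near the line, while Trim52, Trim63 and Trim34b stand well above it.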

How the data were processed

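Per the labels, chromatin-fraction RNA of 1 stimulated group was sequenced in 3 libraries with fragments of 250 to 400 nt. The authors deposited expected counts (reads shared out among features, not whole) and TPM per gene and transcript, in a column layout of RSEM, with notes naming mm10 and annotation M21, and estimated counts and TPM per transcript in a column layout of kallisto, called the direct quantifier. No source used here names aligner, quantifier versions or strand setting. Features were matched to GENCODE M21, and the 0.845%, 0.282% and 0.179% of counts in entries of no annotated gene were left out. Expected counts were rounded for the chi-square test, scaled with TMM (edgeR 4.0.16) and compared with DESeq2 1.42.0 size factors; genes needed a mean of 10 counts. Isoform and quantifier ratios used a pseudocount of 0.1 TPM, a mean of 50 counts and limma 3.58.1. Calls had an adjusted p under 0.05. The chi-square test and the isoform ratio test were tried on simulated data, and the quantifier ratio was not. Sharing of 31-base windows between transcripts replaced a comparison of proteins, which was not done here, and was chosen after the files were seen. Named genes are the 12 highest members, the 3 highest and the lowest of each list, those of the first 3 lists at 1 TPM, and called members with the largest values; Trim34b, Trim38, Trim52, Trim59 and Trim71, and members given only as having no counts, were named after their values were seen. Members and lists were chosen with earlier results of these data known. Alternatives covered thresholds, scalings, filters, pseudocounts, the quantifier and each library left out. Intervals and limits cover counting error only.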

Additional observations from a re-analysis of the deposited data

How the results depend on the processing

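The count of members at 1 TPM in every library was 30, and lay between 30 and 33 with any 1 library left out. It was 19 at a threshold of 5 TPM and stayed within 1.5 times under the 5 other alternatives. The family median of log2(TPM + 0.1) was -0.24 ± 0.262, beside -1.505 ± 0.127 for all protein-coding genes. It was between -0.36 and -0.10 with 1 library left out, and moved with the scale to 1.10 by the direct quantifier, 1.81 with TPM rescaled to protein-coding genes, 1.12 as TMM-scaled CPM and 0.81 with a pseudocount of 1. Variation between libraries called 34 members, between 19 and 28 with 1 library left out and 0 with the common dispersion. The 4 other alternatives gave 32 to 37. Of all genes tested, 68.8% were called, and 47.5%, 54.7% and 47.7% without replicates 1, 2 and 3. The share was 2.44% with the common dispersion and 43.7% to 74.1% under the 4 others. Retained-intron isoforms were above in 3 members, in 1 to 3 with 1 library left out and in 5 by the direct quantifier. They were below in 5 members, in 3 to 5 with 1 library left out and in 3 by the direct quantifier. Of all genes tested, 49.1% were called in either direction, and 27.9%, 39.7% and 47.2% without replicates 1, 2 and 3. By the direct quantifier the share was 63.8%. With all isoforms without a protein-coding type in place of retained-intron ones, 19 members were tested. Of these, 8 were below protein-coding isoforms and 4 above, against 52.5% of genes tested in either direction. The direct quantifier was higher in 7 of 32 members and in 4 to 8 with 1 library left out. It was lower in 11 members, in 5 to 7 with 1 library left out (limma then had fewer libraries) and in 0 without centring. Without centring the direct quantifier was lower in 94 of all 8541 genes tested. With no filter 56 members were tested, and it was higher in 12, of which 5 were among the 7, and lower in 14. Of all genes tested, 57.9% were called in either direction, and 48.6%, 50.3% and 42.1% without replicates 1, 2 and 3. The share was 36.6% without centring and 45.5% with no filter. Reversals were the isoform ratio of Trim37 at 1.02 by the direct quantifier and the uncentred quantifier ratios of Trim21 at 0.066 and Trim35 at 0.03. Ratios past the threshold in neither setting also changed sign. By the direct quantifier these were the isoform ratios of Trim26 at -0.29, Trim27 at 0.28, Trim33 at 0.33 and Trim6 at 0.25. Without centring they were the quantifier ratios of Trim12a at 0.20, Trim15 at 0.23, Trim25 at 0.29, Trim30c at 0.17, Trim30d at 0.18, Trim36 at 0.17, Trim39 at 0.075 and Trim8 at 0.15. That of Trim25 was 0.031 with a pseudocount of 1, and that of Trim3 was -0.055 with no filter. With each replicate left out in turn, the quantifier ratio ranged over both signs in Trim15, at -0.141 to 0.070, in Trim25, at -0.066 to 0.043, and in Trim3, at -0.010 to 0.041. The cause was not tested in any of these. No paired analysis was possible because there is 1 group and so no second group whose replicate numbers could be matched. Of the ratios of named members under all alternatives, 80 isoform ratios and 138 quantifier ratios kept their direction and side of the threshold. Another 9 and 29 lost their call and 4 and 2 gained one. Of levels, 186 moved by less than 1 SD or not at all and 108 by more, which does not measure stability. Leaving out 1 of 3 libraries cannot move a mean by 1 SD, and rescaled TPM and CPM change the unit. By the direct quantifier alone, 27 levels moved by less than 1 SD and 22 by more. Depth let 45 of 68 members reach the 10 counts the variation test needs, and the others are given as levels.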
